A study of Drosophila melanogaster with 12 samples.

Results

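The genes srp, ush, Pxn and Cg25C, all named in fly blood cell biology, were followed through a benchmark of splicing programs. In full they are serpent, u-shaped, peroxidasin and the collagen IV chain now called Col4a1. They are 4 of 16595 genes in the benchmark, matched by exact symbol, and were chosen by their scores in earlier work on the same tables, so those scores are given as descriptions with no test. All 4 lie on the list of 2000 genes that the authors deposited as alternatively spliced (AS list), which holds 12.1% of the genes. The other 14595 genes make up the non-AS list.

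Drosophila hemocytes are the circulating and tissue-resident blood cells of the fly. The transcription factor Serpent, of the GATA family, is required for their formation, and its partner U-shaped, of the Friend of GATA family, binds the N-terminal zinc finger of GATA factors and restrains the choice of the crystal cell fate. The same cells secrete much of the basement membrane, the extracellular sheet built on a collagen IV network, and peroxidasin is the enzyme that forms chemical crosslinks in that network. In flies, srp is known to make forms with and without the N-terminal zinc finger by alternative splicing.

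The libraries were computed and not sequenced: they model S2 cells, a macrophage-like line from fly embryos. By their labels the groups are a control (non-targeting siRNA) and knockdown of the splicing factor PSI by siRNA at 3 sizes of modelled splicing change, 20%, 40% and 60%, with 3 replicates in each of the 4 groups and the same control libraries behind every comparison. Each of 6 programs gave 1 score per gene and level, 18 tables in all, over pooled replicates. No value per replicate exists in these tables, the depth behind a score is unknown, and no expression level is given, so neither a spread between replicates nor the cell type by its markers could be computed. Intervals below are exact 95% binomial intervals that cover the counting of genes only.

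The gene annotation gives the transcript forms of each gene. Positions are in the BDGP6.54 assembly with Ensembl release 115 gene models. The submitters name dm3, and which transcripts the simulation used is not given in the sources used here. srp (FBgn0003507) spans 15986152 to 16004085 on the plus strand of chromosome arm 3R and has 7 transcripts with 7 distinct intron chains, meaning sets of introns. Its exons at 16000613 to 16000785 (173 bp) and 16001189 to 16001406 (218 bp) are mutually exclusive: srp-RB and srp-RE hold the first, and the other 5 transcripts hold the second. srp also has alternative first exons and 2 acceptor sites for its last exon, and 11 of its 13 introns are missing from at least 1 transcript. Its transcripts encode proteins of between 469 and 1264 amino acids.

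ush (FBgn0003963) spans 476220 to 540560 on the plus strand of arm 2L, with 5 transcripts and 4 intron chains. All of its 4 variable introns lie before the exon at 525392 to 525436, and 6 introns are common to every transcript. They join alternative first exons and include 1 cassette exon, at 489517 to 491358 (1842 bp), which ush-RE includes and ush-RD skips. The intron that skips it is 49060 bp long. Pxn (FBgn0011828) spans 2601455 to 2630064 on the minus strand of arm 3L, with 5 transcripts and 5 chains. Its first intron ends at 3 different acceptors, giving lengths of 317, 329 and 387 bp ahead of the start codon. Pxn-RE starts downstream of that intron, and Pxn-RB ends early and encodes 457 amino acids, against 1527 in the other transcripts.

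Cg25C (FBgn0000299) spans 5029609 to 5037279 on the plus strand of arm 2L, with 3 transcripts. They differ in introns only by the donor site of the first, which gives introns of 326, 390 and 500 bp, all before the start codon. All 3 transcripts therefore encode the same 1779 amino acids. The 4 genes had more annotated forms than most AS-list genes: they have between 3 and 7 intron chains, against a median of 1 and an upper quartile of 2 over the 1977 AS-list genes matched to the annotation. Of those genes, 457 (23.1%) have 3 or more chains, as all 4 do. Mutually exclusive exons are annotated in 1.62% of the matched AS-list genes, a cassette exon in 10.9%, an alternative donor in 14.3%, an alternative acceptor in 14.1% and alternative first exons in 22.7%.

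**Figure D1:**
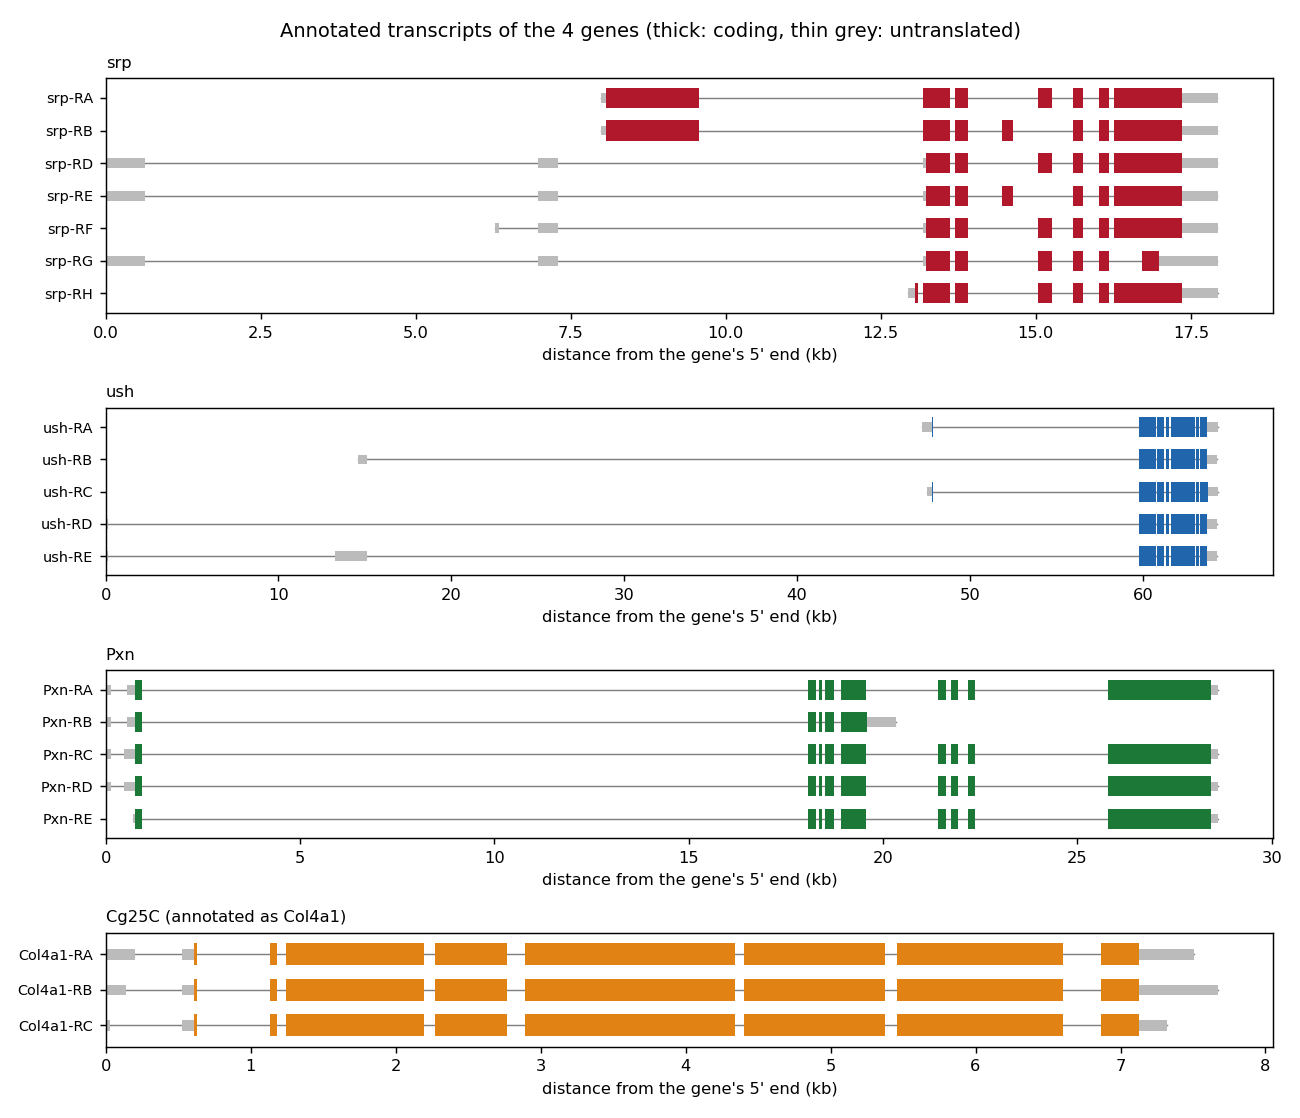
Annotated transcripts of srp, ush, Pxn and Cg25C, drawn 5′ to 3′ against the distance in kb from each gene's 5′ end. Thick bars are coding exons, thin grey bars untranslated exons and lines introns. The introns that differ between transcripts lie at the 5′ end in ush and Cg25C, whereas in srp they also lie in the middle and before the last exon; transcript ends differ as well.

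A gene was counted as called where its score passed a customary threshold, 0.95 for scores with an upper limit of 1 and a Bayes factor of 10 for MISO, which compares isoform mixtures. These scores lay between 0 and 1 except in the authors' deposited rMATS tables, where 9, 10 and 8 genes were below 0, lowest level first, down to -197. Of the 18 tables, 18 listed srp, 16 ush, 17 Pxn and 15 Cg25C. srp and Pxn were each called in 13 tables, Cg25C in 11 and ush in 10. At least as many calls as for ush were made for 408 of the 2000 AS-list genes (20.4%), and at least as many as for srp and Pxn for 244 (12.2%). Of the 2000, 1052 (52.6%) were called in no table. Among the 457 AS-list genes with 3 or more intron chains the median was 12 tables, with quartiles of 8 and 14. There 281 (61.5%) had at least as many calls as ush and 259 (56.7%) at least as many as Cg25C. For srp and Pxn 185 (40.5%) had at least as many. The members' counts thus lay between the quartiles of AS-list genes with 3 or more intron chains. srp has 7 chains, Pxn 5 and ush 4, and their counts were not set against genes with that many.

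**Figure D2:**
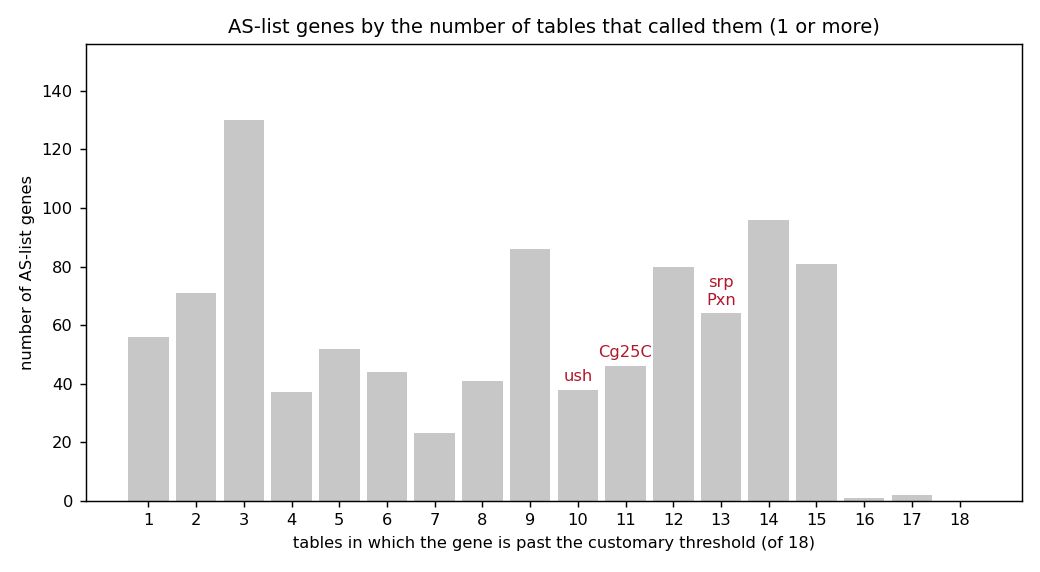
The 948 AS-list genes called in 1 or more tables, by the number of tables (of 18) in which their score passed the customary threshold (horizontal axis) and the number of genes (vertical axis). ush stands at 10 tables, Cg25C at 11, and srp and Pxn at 13.

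JUM, which compares the use of splice junctions without an annotation, gave srp, ush and Cg25C a score of 1 at the 20%, 40% and 60% levels in the authors' deposited tables. Of the members, JUM called 4 of 4 at both lower levels and 3 of 3 listed at the 60% level. Over all AS-list genes that JUM listed, 84.3%, 91.0% and 91.9% were called, in the order of the levels. A score of 1 at all levels was given to 408 of the 590 AS-list genes that JUM listed throughout (69.2%), so this pattern was the common one. Pxn scored 1 at the 20% and 40% levels in the authors' deposited JUM tables and was not listed at the 60% level, where the change was largest. Only 9 of the 599 AS-list genes that JUM listed at the 20% and 40% levels were missing at the 60% level (1.5%, interval 0.689 to 2.83).

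Whippet, which quantifies splicing nodes of annotated genes, called 4 of 4 members at every level. The background, the share of AS-list genes in the table that were called, was 45.1%, 52.3% and 56.4%, lowest level first. Among the listed AS-list genes with 3 or more intron chains, as all 4 members have, the share was 76.1%, 84.1% and 88.6%. srp, Pxn and Cg25C scored 1 at each level in the authors' deposited Whippet tables, as did 489 of the 1524 AS-list genes listed throughout (32.1%). ush scored 0.993, 1 and 1 in that order of levels in the authors' deposited Whippet tables.

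MAJIQ, which scores local splicing variations, separated the members at the 20% level. There, in the authors' deposited MAJIQ table, srp had a score of 0.406, Pxn 0.62, Cg25C 0.778 and ush 0.999999999981. Only ush was past the threshold, 1 of 4 members against a background of 51.3%. Of the 729 AS-list genes in that table, 511 scored higher than srp, 483 higher than Pxn, 452 higher than Cg25C and 77 higher than ush. At the 40% and 60% levels 4 of 4 members were called, against backgrounds of 78.0% and 82.7%. Among listed AS-list genes with 3 or more intron chains MAJIQ called 60.8%, 92.9% and 95.7%, lowest level first.

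The scores of srp, ush and Cg25C were 1 at both higher levels in the authors' deposited MAJIQ tables, and those of Pxn were 0.999999995874 and 1. Of 572 AS-list genes that MAJIQ called at both higher levels and listed throughout, 200 (35.0%, interval 31.1 to 39) were below the threshold at the 20% level, like srp, Pxn and Cg25C. A score as low as that of srp at the 20% level was given to 67 of the 572 (11.7%, interval 9.19 to 14.6).

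rMATS, which tests a fixed set of event types, divided the 4 genes into pairs. srp and Pxn scored 1 at all levels in the authors' deposited rMATS tables. ush scored 0.0518 at the 20% level, 0 at the 40% level and 0.0294 at the 60% level in the authors' deposited rMATS tables, and Cg25C scored 0.0805, 0 and 0.0445. rMATS thus called 2 of 4 members at each level, against backgrounds of 69.3%, 77.4% and 81.9% in the order of the levels. The order of the scores over the levels was the same in ush and Cg25C, with the lowest value at the 40% level. This pattern was chosen after the values were seen. A lowest value at the 40% level, whatever the order of the other levels, was found in 18 of the 501 AS-list genes that rMATS listed throughout (3.59%). The 18 include ush and Cg25C. At the 40% level 341 of 513 AS-list genes had the highest score of 1 and could not show the pattern, so the share is no measure of its rarity among low scores. At that level 64 of 513 AS-list genes had a score of exactly 0.

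Within the set, JUM and rMATS differed most on ush and Cg25C. Of 367 AS-list genes that JUM called and rMATS listed at all 3 levels, 40 (10.9%, interval 7.9 to 14.5) were called by rMATS at none. Scores of 0 to under 0.1 at all levels, a bound chosen after the values were seen, were given by rMATS to 9 of the 367 (2.45%, interval 1.13 to 4.6), ush and Cg25C among them. Another 4 of the 40 had rMATS scores below 0. Among genes with the same annotated event types the rMATS calls varied. At the 60% level rMATS called 165 of 190 listed AS-list genes with a cassette exon (86.8%), the type annotated in ush, and 49 of 56 whose only annotated type is an alternative donor (87.5%), as in Cg25C. Of 21 with alternative first exons and a cassette exon and no other type, as in ush, it called 13 at that level (61.9%, interval 38.4 to 81.9) and 10 at the 20% level (47.6%, interval 25.7 to 70.2). For mutually exclusive exons, annotated in srp, it called 20 of 27 at the 60% level (74.1%).

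Cufflinks, which estimates transcript abundance, gave the members their widest order at the lowest level. At the 20% level Cg25C had a score of 0.992, Pxn 0.976, srp 0.692 and ush 0 in the authors' deposited Cufflinks table. At the 40% level srp, Pxn and Cg25C shared 0.999637 and ush had 0.458 in the authors' deposited Cufflinks table. At the 60% level srp, Pxn and Cg25C shared 0.999741, and ush had 0.984 in the authors' deposited Cufflinks table. These shared values are the highest of their tables and were reached by 302 of 1822 AS-list genes (16.6%) and by 398 (21.8%). Cufflinks called 2 of 4 members at the 20% level, 3 of 4 at the 40% level and 4 of 4 at the 60% level, against backgrounds of 10.1%, 21.6% and 26.4%. Among listed AS-list genes with 3 or more intron chains the shares were 23.8%, 52.8% and 60.1%. Of the 481 AS-list genes called at the 60% level, 176 (36.6%) were called at all levels like Pxn and Cg25C, 204 (42.4%) missed only the 20% level like srp, and 97 (20.2%) missed both lower levels like ush.

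MISO called none of the members. The authors' deposited MISO tables gave srp Bayes factors of 3.31 at the 20% level, 1.21 at the 40% level and 1.62 at the 60% level. Pxn had 0.32, 0.73 and 6.79 in the authors' deposited MISO tables, ush had 0.85 at the 40% level alone, and Cg25C was in none of them. The background was 0.781%, 4.03% and 9.45%, so 0 calls among 2, 3 and 2 listed members is close to it. A Bayes factor that is larger at each higher level, as for Pxn, was found in 26 of 96 AS-list genes listed throughout (27.1%), and one that is highest at the 20% level, as for srp, in 18 (18.8%).

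**Figure D3:**
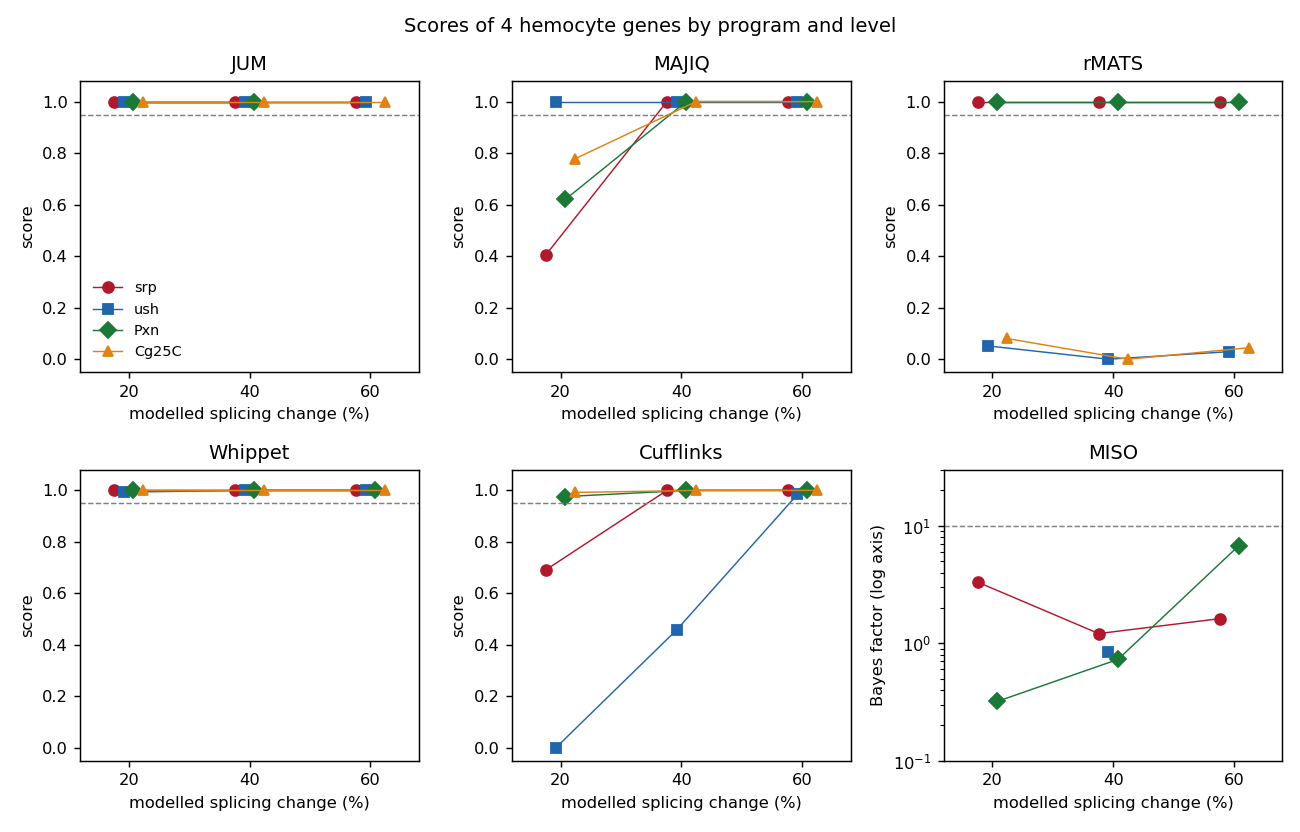
Scores of srp, ush, Pxn and Cg25C by program (panels) against the modelled splicing change in percent, with points shifted sideways so that they can be told apart. Dashed lines mark the customary thresholds, and the MISO axis is logarithmic. All 4 genes are near 1 with Whippet, ush and Cg25C are near 0 with rMATS, and ush is lowest with Cufflinks.

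**Figure D4:**
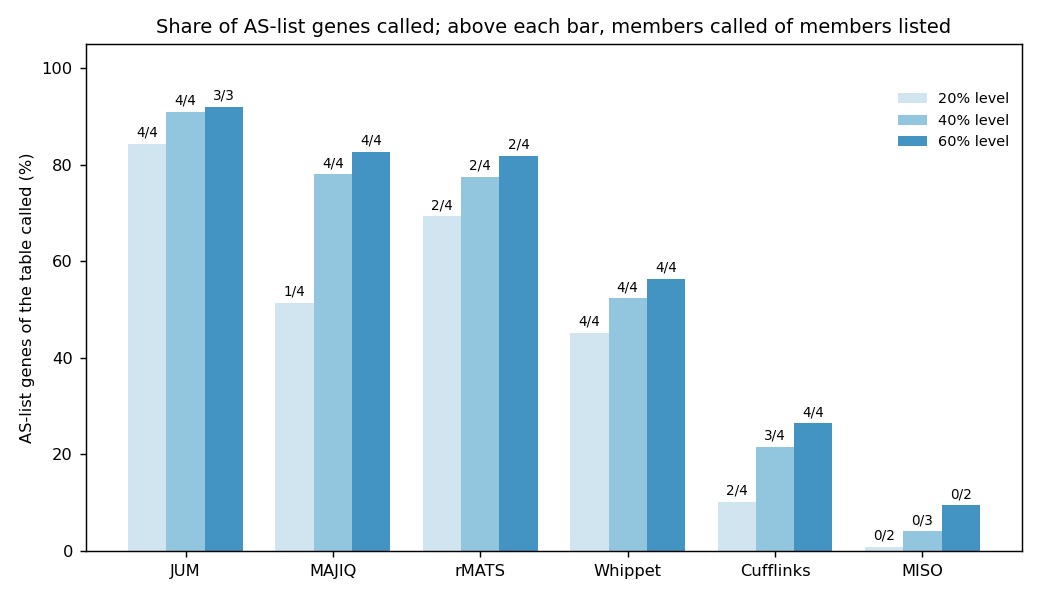
Share of the AS-list genes in each table that passed the customary threshold, in percent, by program and by level (20%, 40% and 60% from left to right). The label on each bar gives the members called of the members listed, which is 2/4 for rMATS at every level and 4/4 for Whippet.

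A second rule counted a score that at most 5% of the non-AS list reaches. The 5% is of all 14595 genes of that list, whether a table lists them or not, so many listed ones pass. At the 20% level 729 of 897 listed non-AS-list genes passed with JUM, 729 of 1247 with MAJIQ and 464 of 754 with rMATS. The rule detected srp in 18 tables, Pxn in 17, and ush and Cg25C in 14 each. JUM detected 4, 4 and 3 members at the 20%, 40% and 60% levels, against 97.5%, 97.2% and 97.7% of its listed AS-list genes. MAJIQ detected 4 at each level, against 86.7%, 86.2% and 87.5%. rMATS detected 4, 2 and 4 members at the 20%, 40% and 60% levels, against 85.1%, 86.7% and 90.3%. The lowest score that counted was 0.00188 at the 20% level, where ush and Cg25C passed with scores near 0, while their scores of 0 at the 40% level did not. Whippet detected 4 at each level, against 56.0%, 59.8% and 61.3%. Cufflinks detected 3, 4 and 4, against 24.8%, 30.4% and 34.2%, and MISO detected each of the 2, 3 and 2 members it listed, as it did 100% of its AS-list genes. All 187, 204 and 202 non-AS-list genes that MISO listed passed as well, so for MISO the rule records only that a gene was listed. By this rule the members did not differ with MAJIQ, where the lowest score that counted was 0.000542 at the 20% level. With Cufflinks only ush at the 20% level was missed. In that Cufflinks table the rule records only a score above 0. There 451 AS-list genes passed, the other 1371 scored 0, and 126 non-AS-list genes passed. With the 5% taken over the non-AS-list genes of each table instead, rMATS detected 2 members at every level.

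Noncoding genes overlap srp and Pxn on the same strand and stand in the same tables, under names of their own on the non-AS list. They were looked up after the scores had been seen. CR45660 (2629834 to 2630693 on arm 3L) overlaps the 5′ end of Pxn by 231 bp. Pxn was missing at the 60% level in the authors' deposited JUM tables, and CR45660 was listed there at that level alone, with a score of 1. Both Pxn and CR45660 had Bayes factors of 0.32, 0.73 and 6.79 in the authors' deposited MISO tables, lowest level first. Of the 9 AS-list genes that JUM listed at the 20% and 40% levels and not at the 60% level, 3 had a gene overlapping on the same strand that JUM listed at the 60% level alone: Pxn with CR45660, CG3409 with CG45092 and unc-119 with CR44357. Among the 590 AS-list genes that JUM listed at all levels there were 0 such genes.

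CR44133 (15986181 to 15993665 on arm 3R) lies over the 5′ part of srp, with 7485 bp in common. In the authors' deposited MAJIQ tables srp scored 0.406, 1 and 1 and CR44133 scored 0.00673, 0.986 and 1, so MAJIQ called this non-AS-list gene at the same levels as srp. The Bayes factors in the authors' deposited MISO tables were 3.31, 1.21 and 1.62 for srp and 3.31, 1.21 and 1.13 for CR44133, equal except at the 60% level. Over the whole MISO tables, lowest level first, 30 of 30, 27 of 33 and 31 of 32 pairs of genes that overlap on the same strand had equal Bayes factors. Over all pairs of listed genes the shares were 3.12%, 2.99% and 2.58%. At the 60% level 16 of the 50 non-AS-list genes called by MAJIQ (32.0%) overlap an AS-list gene on the same strand. The share was 4.75% of the 1243 listed non-AS-list genes that this count covers. With the other programs at that level, the share of called genes was 11.4% for JUM, 8.57% for rMATS and 8.05% for Whippet. It was 26.7% for Cufflinks and 33.3% for MISO, the last from 2 of 6 genes. Why the names and values are shared was not tested.

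**Figure D5:**
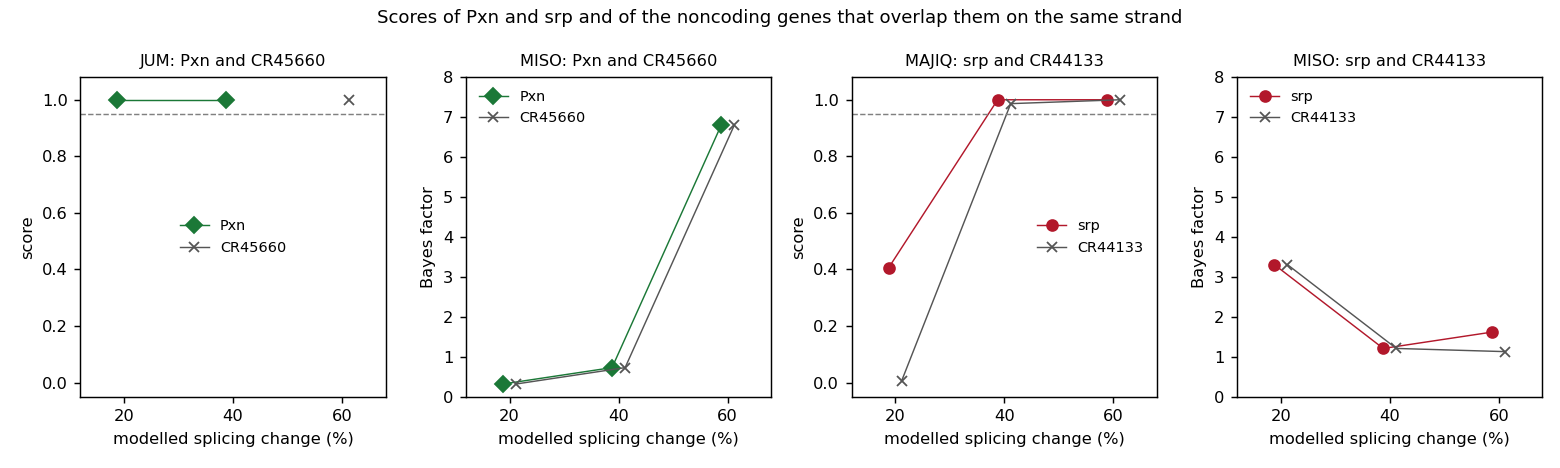
Scores of Pxn with CR45660 and of srp with CR44133 against the modelled splicing change in percent, in the JUM, MAJIQ and MISO tables. A missing point means that the gene was not listed. CR45660 has its JUM score at the 60% level, where Pxn has none, and the Bayes factors of each pair coincide except for srp and CR44133 at the 60% level.

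ush is overlapped on the same strand by the annotated noncoding gene CR46258, which is on neither list (as for further noncoding genes over ush and Pxn), and on the other strand by cbt, a zinc finger gene of the non-AS list that was called in 0 tables. Cg25C overlaps no annotated gene. Its partner vkg, the other collagen IV chain, lies 1417 bp away on the opposite strand and is on the non-AS list. In the authors' deposited JUM tables Cg25C scored 1 at each level, against 0.121, 0.452 and 0.411 for vkg, lowest level first. vkg was called in 0 of the 15 tables that listed it.

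Other genes of blood cells and basement membrane were looked up in 4 lists: other GATA factors, blood cell fate, hemocyte markers and basement membrane. These lists were drawn up with earlier results of the same data known, so their shares are descriptions and cannot show enrichment. All 39 genes were found, and the AS list held 9 of them (23.1%), compared with its 12.1% share of the benchmark. Among GATA factors this was GATAe alone, of 4. In the authors' deposited tables GATAe was called at the 60% level by rMATS with 0.978 and by Whippet with 0.997, and JUM and MAJIQ did not list it. Of 13 blood cell fate genes only kn, an EBF family factor, was on the AS list, and it was called in 0 tables. Of 9 hemocyte markers the AS list held NimC1, He and PPO2, and of these only the phagocytosis receptor NimC1 was called, in 1 table.

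Of the 9 AS-list genes of the 4 lists, 5 were called in 1 or more tables, compared with 47.4% of the whole AS list. The basement membrane list held most of the calls, mainly through wb and BM-40-SPARC. Of the 13 basement membrane genes, 4 were on the AS list: wb, BM-40-SPARC, Tig and PH4alphaEFB. The laminin subunit gene wb was called in 15 tables, more than any member. Its rMATS score at the 20% level was 0.999998 and its MAJIQ score 0.970 in the authors' deposited tables. BM-40-SPARC, which encodes a collagen-binding glycoprotein, was called in 9 tables. It scored 1 with JUM, MAJIQ and Whippet and 0 with Cufflinks at every level in the authors' deposited tables. Tig (tiggrin) was called in 3 tables, all of Whippet, and the prolyl hydroxylase gene PH4alphaEFB in 0. Of the 30 genes of the 4 lists on the non-AS list, 5 were called in 1 or more tables: pnr, grn, Pvr, trol and Ppn. These were listed in 15, 6, 18, 15 and 15 tables in that order, and called in 2 for grn and 1 for each other. Over all non-AS-list genes 426 (2.92%) were called in 1 or more tables. That share includes many genes that few programs listed (JUM listed 897 of 14595 at the 20% level), so the 2 shares are not directly comparable.

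The genes most like each member were found by the mean absolute difference in percentile rank over the 18 tables, with unlisted genes at 0. The percentile is taken among the AS-list genes of a table, so the tables share many tied scores. For Cg25C the nearest AS-list genes were Ack-like (0.409 percentile points), CG3793 (2.82) and Snap25 (2.86). Snap25 is among the genes below 0 in the authors' deposited rMATS tables, with -146 at every level. Ack-like shared the low rMATS scores: in the authors' deposited rMATS tables it had 0.0857, 0 and 0.118 at the 20%, 40% and 60% levels. For srp they were CG14200 (3.34), tay (3.75) and kuz (3.91), and for Pxn tay (7.13), Sap47 (8.03) and CG12090 (9.19). For ush they were CG32579 (7.21), Akt1 (7.59) and Rab7 (7.66). CG32579, Rab7 and CG3793 were not listed by rMATS at any level. They had no low rMATS score, and their place at 0 lay near the low ranks of ush and Cg25C. Among the members, srp and Pxn lay closest, 9.89 points apart, and ush and Cg25C were 13.0 apart. The 2 genes of the first pair differed from those of the second by between 25.1 and 31.7 points. Over the tables that list both genes, srp and Pxn were 7.19 points apart and ush and Cg25C 11.0, and the distances across these pairs were 12.7 to 25.2, so Cg25C then lay almost as near to srp as to ush.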

How the data were processed

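The authors deposited 18 score tables, 1 per program and level, in which a class label stands beside each gene's score, and both gene lists. Each score is used as deposited, with higher read as stronger evidence of a splicing change; no source used here gives its transformation. That label matched the lists for every gene. STAR 2.5.4b, Cufflinks and dm3 are named, without a role, in the submitters' processing notes. A score rests on 3 knockdown and 3 control libraries together, so the spread and depth per library are unknown.

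Calls used a threshold of 0.95, or a Bayes factor of 10 for MISO. The second rule used the lowest score in a table that at most 5% of all non-AS-list genes reach. Percentiles place ties at their mid-rank. Gene models came from BDGP6.54 (Ensembl release 115), and symbols in the lists were found there as current or unique older names, 1977 of 2000 AS-list genes (98.8%); Cg25C was matched as Col4a1. Overlap means shared span on the same strand. The members and gene lists were chosen with earlier results of these data known. Named genes are the members, the AS-list genes of each list and the 3 nearest genes per member; the overlapping genes, vkg and the called non-AS-list genes were named after their values were seen. The ranking and event-type functions were checked on constructed cases. Python 3.11.15, numpy 2.4.6, pandas 2.3.3, scipy 1.17.1 and matplotlib 3.10.9 were used.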

Additional observations from a re-analysis of the deposited data

How the results depend on the processing

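With thresholds of 0.9 or 0.99, or Bayes factors of 5 or 20, each member's number of calls moved by at most 1 table: ush had 9 and Pxn 12 at 0.99, and Pxn had 14 at a Bayes factor of 5. Detection by the second rule stayed within 1.5 times at a rate of 1% and over the non-AS-list genes of each table. In the latter it stood at 16 tables for srp, 15 for Pxn, 12 for Cg25C and 11 for ush. The 10% rate is a weak check, because every gene listed by JUM, MAJIQ, rMATS or MISO then passed. With Cufflinks at the 20% level the lowest score that counted was 0.007927 at all 3 rates, so nothing could change there. Taking the distance only over tables that list both genes, 0 of the 3 nearest genes of srp and 0 of those of Pxn were the same, because unlisted tables no longer count. Of 66 percentile ranks, 44 moved with ties at the lowest rank and 57 over all AS-list genes with unlisted ones at the bottom. Matching by exact symbol left 8 of the 9 other AS-list genes, and counting transcripts in place of intron chains gave ush 5 and changed no other member. No paired analysis was possible because the tables hold no value per library, and leaving out a replicate was not run for the same reason.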
